A study of Mus musculus with 16 samples.

Results

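Glycolysis breaks glucose down to pyruvate in a chain of cytosolic enzymes, and lactate dehydrogenase turns pyruvate into lactate when the cell does not pass it to the mitochondrion. Hypoxia-inducible factor, a pair of proteins whose oxygen-sensitive subunit is encoded by Hif1a, raises the transcription of most of these enzymes, of glucose and lactate carriers and of genes that spare oxygen, by binding a short element with the core ACGTG or GCGTG. Dividing cells and activated lymphocytes also raise glycolysis in the presence of oxygen. In lymph nodes, lymphatic endothelial cells (LECs) line the sinuses and fibroblastic reticular cells build the scaffold on which lymphocytes move.

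The levels of 35 genes of this pathway were described, out of the 48440 genes in the count tables. They were taken by symbol: glucose carriers (Slc2a1, Slc2a3), enzymes from hexokinase to pyruvate kinase (Hk1, Hk2, Gpi1, Pfkl, Pfkm, Pfkp, Aldoa, Aldoc, Tpi1, Gapdh, Pgk1, Pgam1, Eno1, Eno2, Pkm), the bifunctional regulators Pfkfb3 and Pfkfb4, lactate dehydrogenases (Ldha, Ldhb), monocarboxylate carriers (Slc16a1, Slc16a3), the pyruvate dehydrogenase kinases Pdk1 and Pdk4, and genes linked to the hypoxia response (Bnip3, Bnip3l, Ddit4, Egln1, Egln3, Hif1a, P4ha1, P4ha2, Adm, Ndrg1). All 35 symbols were found, and no member was used to gate a cell type.

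The cells came from inguinal lymph nodes of C57Bl/6 mice that were 8 weeks old, enriched for podoplanin (PDPN), a surface protein of lymphatic endothelial and reticular cells. Mice had received 500000 MC38 cells, a mouse colon carcinoma line, under the skin of the lower right flank, either live or fixed with paraformaldehyde, and nodes were taken on day 12. The 5 groups were draining nodes of mice given live cells, contralateral non-draining nodes of mice given live cells, draining nodes of mice given fixed cells, non-draining nodes of mice given fixed cells (3 libraries each), and nodes of naive mice without any inoculum (4 libraries). The tumor is 1 cell line at 1 site and 1 day, and draining and non-draining nodes come from the same animals, so a non-draining node is not a node of an untouched mouse. Libraries are lettered A to C, or A to D for naive nodes.

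The 16 libraries held 7486725 to 48945961 unique molecular identifiers (UMIs) each, and 50386 of 68741 barcodes were kept, with a median of 3421 to 5098 UMIs per kept cell. A gate on marker genes placed 40749 cells in types, which are called "X-like" below, and left 9637 cells (19.13%, median 1140 UMIs) without a type. There were 3204 fLEC-like cells (floor LECs of the subcapsular sinus), 3914 cLEC-like (ceiling), 984 MedLEC-like (medullary) and 638 CorLEC-like (cortical) cells. Among fibroblastic cells there were 1827 MRC-like (marginal reticular), 3449 MedRC-like (medullary reticular), 3984 TRC-like (T-zone reticular) and 542 PRC-like cells, and 765 cells of the FDC (follicular dendritic cell) gate. Another 2240 fibroblastic cells and 1929 LECs were placed in their lineage but in none of these subsets, so the values per subset leave them out. No gate was made for the B-zone reticular cells and activated stromal cells that the study also describes. Pdgfrb, a fibroblast receptor held out of the gates, was detected in 71.15% of MRC-like and 1.78% of fLEC-like cells, and Cdh5, an endothelial adhesion gene also held out, in 92.26% of fLEC-like and 8.76% of MRC-like cells, at median depths of 11652 UMIs (MRC-like) and 11639 UMIs (fLEC-like). Pdgfrb was found in only 8.5% of the cells of the FDC gate, so that this gate is weakly supported. In total, 330 barcode sequences occurred in more than 1 library.

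UMIs were summed per library and type, and values are given as CPM, the UMIs of a gene per 1000000 UMIs of that library and type, scaled by edgeR's TMM factors. Log2 differences, their standard errors (SE) and adjusted p-values come from edgeR's quasi-likelihood test over all genes of a type, and a gene is said to have risen or fallen, or to be called, where the adjusted p was under 0.05. In summed counts, fewer transcripts per cell and a different mix of cells within a type cannot be told apart.

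With live MC38 cells, 28 of the 35 genes changed in at least 1 of 18 types, comparing draining with non-draining nodes. Among all 15322 genes tested in any of these types, 43.9% were called in at least 1, and among the 8625 genes tested in at least 9 types, 54.9%, so that a call somewhere is common for any well-detected gene. Of the 28 members, 15 only rose, 6 only fell, and 7 (Slc2a1, Adm, Hif1a, Pfkfb3, Slc16a1, Hk2 and Tpi1) rose in some types and fell in others. Pfkm, Aldoc, Pgk1, Bnip3l, Egln1, Egln3 and Ndrg1 were called in none of the types where they had enough counts for a test. These were 7, 1, 8, 17, 15, 3 and 16 types in that order, so for Aldoc and Egln3 little could be seen. Ldha, the lactate dehydrogenase subunit that favors lactate formation, rose in 10 types, Gapdh, the dehydrogenase at the middle of the chain, in 9, and Pkm, the pyruvate kinase of most tissues, in 7. Whether a gene's change differed between types was not tested.

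**Figure D1:**
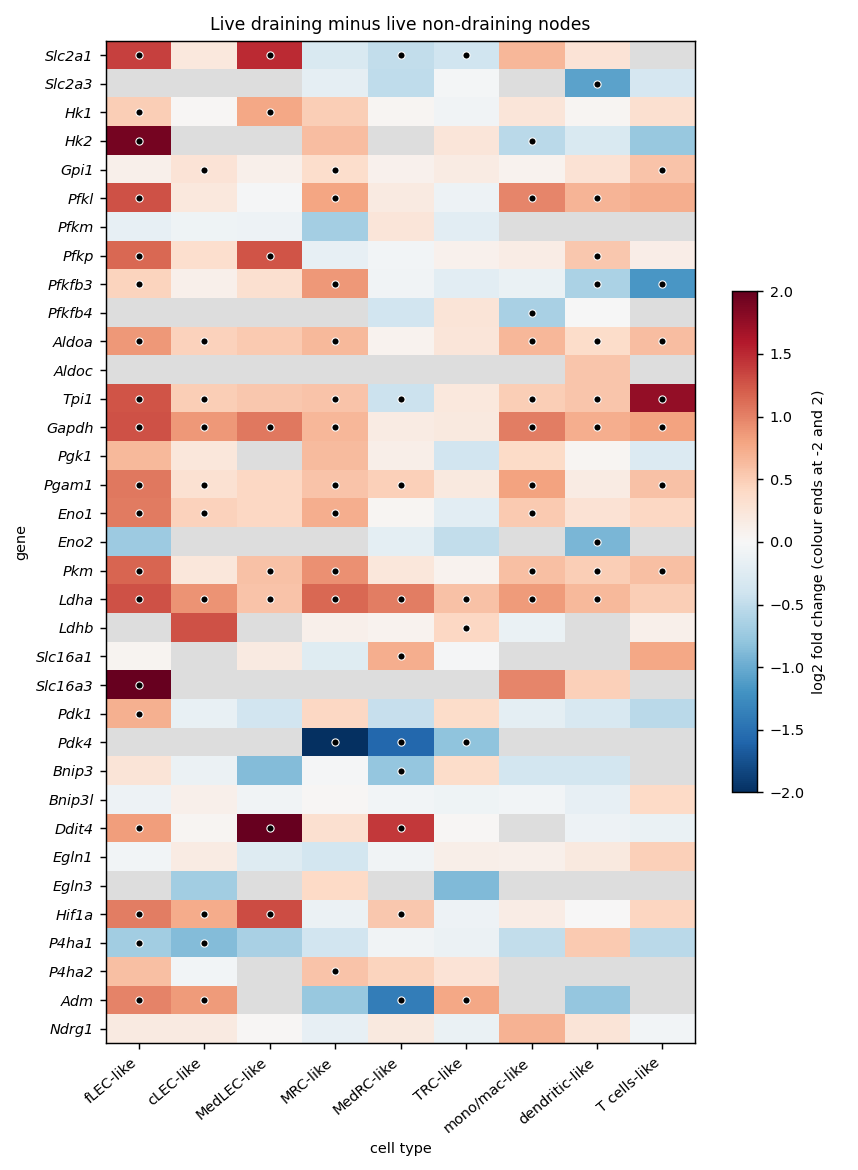
Log2 difference, live draining minus live non-draining nodes, for each of the 35 genes (down the page) in 9 cell types (across). Red is higher and blue is lower in draining nodes, the color ends at 2 log2 units either way, a dot marks an adjusted p under 0.05 and grey means too few counts to test. The fLEC-like column holds 19 dots, 18 of them on higher genes, while the TRC-like column holds 5.

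Promoter letters are shown for 5 of these genes, the 2 members that the study names (Ldha and Pkm), the glucose and lactate carriers Slc2a1 and Slc16a3, and P4ha1, which fell. Each is the 250 bases before a RefSeq transcript start (GRCm38.p6), with ACGTG and GCGTG on either strand in capitals; the Ldha, Pkm and Slc16a3 windows lie inside the annotated gene, before an internal start. Ldha and Pkm have another window each in the table, and the one with more motif copies is shown. They are at chr7:46845554-46845803 (Ldha), chr9:59656977-59657226 (Pkm), chr4:119108495-119108744 (Slc2a1), chr11:120948817-120949066 (Slc16a3) and chr10:59323046-59323295 (P4ha1), all on the plus strand.
Ldha: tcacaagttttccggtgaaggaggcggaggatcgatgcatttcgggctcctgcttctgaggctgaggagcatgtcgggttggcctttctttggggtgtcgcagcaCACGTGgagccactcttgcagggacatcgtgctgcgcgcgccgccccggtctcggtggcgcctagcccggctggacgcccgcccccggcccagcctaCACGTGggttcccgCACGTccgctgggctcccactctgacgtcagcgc
Pkm: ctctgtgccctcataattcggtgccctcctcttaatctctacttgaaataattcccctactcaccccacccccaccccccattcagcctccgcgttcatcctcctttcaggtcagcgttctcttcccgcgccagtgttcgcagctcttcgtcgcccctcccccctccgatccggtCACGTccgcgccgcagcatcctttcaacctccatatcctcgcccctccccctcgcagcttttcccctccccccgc
Slc2a1: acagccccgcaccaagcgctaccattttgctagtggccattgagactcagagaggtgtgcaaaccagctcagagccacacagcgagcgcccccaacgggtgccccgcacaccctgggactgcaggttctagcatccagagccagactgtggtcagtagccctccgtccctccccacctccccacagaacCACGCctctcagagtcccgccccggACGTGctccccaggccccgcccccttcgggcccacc
Slc16a3: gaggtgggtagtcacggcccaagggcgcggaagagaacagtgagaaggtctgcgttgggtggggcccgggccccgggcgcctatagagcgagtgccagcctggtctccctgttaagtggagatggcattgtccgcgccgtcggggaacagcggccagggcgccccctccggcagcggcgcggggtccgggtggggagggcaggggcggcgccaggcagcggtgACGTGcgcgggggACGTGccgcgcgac
P4ha1: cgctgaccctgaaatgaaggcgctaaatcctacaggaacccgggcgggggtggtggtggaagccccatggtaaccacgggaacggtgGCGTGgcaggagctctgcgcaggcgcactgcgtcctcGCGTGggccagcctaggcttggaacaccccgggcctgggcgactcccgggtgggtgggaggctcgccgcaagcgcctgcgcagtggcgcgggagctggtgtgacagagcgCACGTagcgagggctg
The Ldha window holds 5 copies of ACGTG, counting both strands, the Slc16a3 window 2, and the Pkm, Slc2a1 and P4ha1 windows 1 each. The other Ldha window, chr7:46846832-46847081, holds 0 copies of ACGTG and 1 of GCGTG, and the other Pkm window, chr9:59656326-59656575, holds 0 of either. ACGTG occurred in 16.6% of 32851 windows of all genes, and in 46.7% of the 45 windows of the 32 members that matched by symbol. For either motif the shares were 82.2% of member windows and 38.6% of all windows. A match is a description of the letters and not a bound site, and P4ha1, whose window also holds both motifs, moved the other way in fLEC-like cells.

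In fLEC-like cells, the glucose carrier Slc2a1, most tested enzymes of glycolysis and the lactate carrier Slc16a3 were higher in draining nodes of mice given live cells. Of 29 members with enough counts, 18 rose and 1 fell, 65.5% against 29.7% of all 11831 genes tested in these cells. The median member was higher by 0.83 on the log2 scale, against -0.01 for all genes tested. The largest rises among genes of at least 10 CPM were in Slc2a1, Gapdh, Pfkl and Ldha.

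Slc2a1, the main glucose carrier of endothelium (chr4:119108711-119137983, plus strand, GRCm38), had 146, 153 and 161 CPM in live draining nodes, against 50.7, 76.3 and 61.2 CPM in live non-draining nodes. The difference was 1.36 on the log2 scale (SE 0.11, adjusted p = 3.14e-12). The 3 live draining libraries lay above all other libraries, with 52.8, 59.1 and 53.0 CPM in fixed draining nodes, 66.7, 54.1 and 53.7 CPM in fixed non-draining nodes, and 43.0 to 51.6 CPM in naive nodes.

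Pfkl, the liver-type subunit of phosphofructokinase, the committed step of glycolysis (chr10:77986947-78010083, minus strand), had 50.4, 51.6 and 51.1 CPM in live draining nodes, against 17.3, 25.1 and 24.7 CPM in live non-draining nodes (log2 difference 1.28, SE 0.15, adjusted p = 3.3e-08). Gapdh (chr6:125161715-125166467, minus strand) had 891, 924 and 957 CPM in live draining nodes, against 422, 372 and 336 CPM in live non-draining nodes, a difference of 1.28 (SE 0.09, adjusted p = 4.97e-14). In neither gene did the groups overlap.

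Pkm (chr9:59656368-59679375, plus strand) had 366, 417 and 382 CPM in live draining nodes, against 194, 158 and 158 CPM in live non-draining nodes, a difference of 1.16 (SE 0.08, adjusted p = 1.61e-13). Ldha (chr7:46841475-46855627, plus strand) had 290, 303 and 287 CPM in live draining nodes, against 141, 111 and 99.6 CPM in live non-draining nodes, a difference of 1.27 (SE 0.09, adjusted p = 1.89e-13). The fixed and naive libraries of both genes stayed within a narrow band, 184 to 192 CPM (fixed draining), 176 to 195 CPM (fixed non-draining) and 167 to 187 CPM (naive) for Pkm. For Ldha they were 135 to 148 CPM (fixed draining), 134 to 137 CPM (fixed non-draining) and 117 to 139 CPM (naive).

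**Figure D2:**
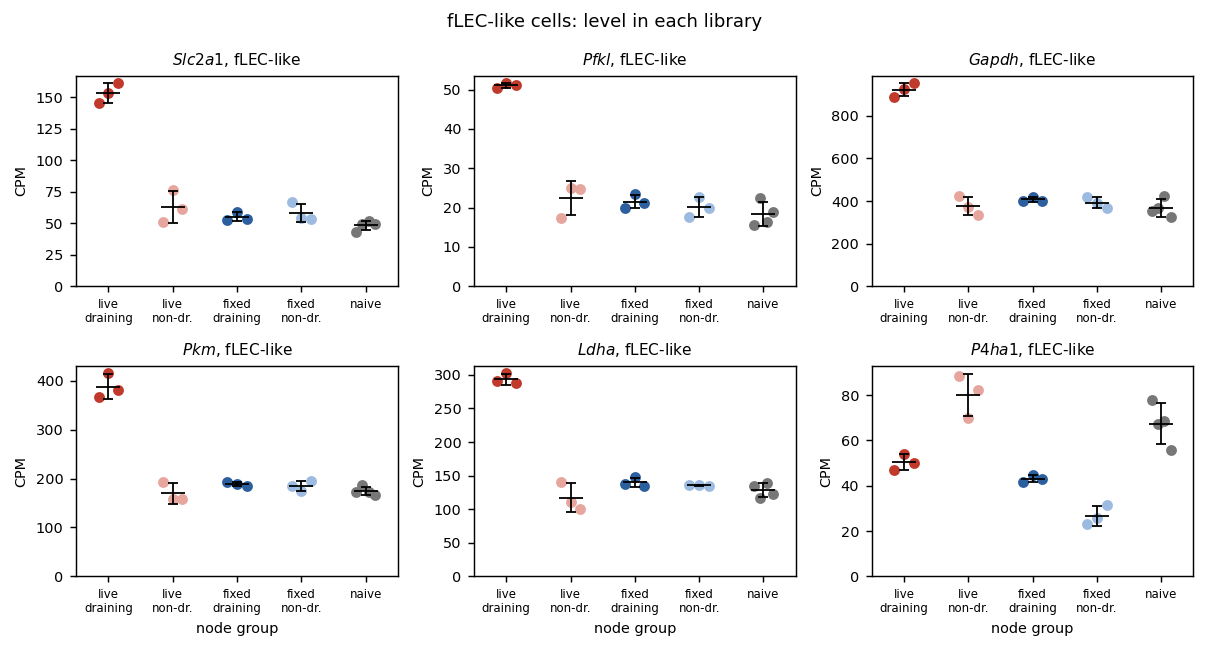
CPM of Slc2a1, Pfkl, Gapdh, Pkm, Ldha and P4ha1 in fLEC-like cells, 1 point per library in 5 groups, with the mean and SD as bar and whiskers. The 3 live draining libraries of Slc2a1 sit at 146 to 161 CPM, above every other library, whereas P4ha1 is at 47.1 to 54.0 CPM in live draining nodes, 70.0 to 88.4 CPM in live non-draining nodes and 22.9 to 31.5 CPM in fixed non-draining nodes.

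Another 7 enzymes of glycolysis rose. Their log2 differences were 1.26 for Tpi1 (triose phosphate isomerase), 1.15 for Pfkp (platelet-type phosphofructokinase), 1.06 for Pgam1 (phosphoglycerate mutase), 1.04 for Eno1 (enolase), 0.87 for Aldoa (aldolase), 0.50 for Hk1 (hexokinase) and 0.44 for Pfkfb3, which makes the phosphofructokinase activator fructose 2,6-bisphosphate. Hk2, the inducible hexokinase, was called too at a level under 10 CPM, with 87 UMIs in live draining nodes and 8 UMIs in live non-draining nodes.

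Members linked to the hypoxia response were split. Hif1a (chr12:73901375-73947530, plus strand) had 262, 254 and 275 CPM in live draining nodes, against 130, 127 and 132 CPM in live non-draining nodes, a log2 difference of 1.02. Adm, which encodes the vasoactive peptide adrenomedullin, rose by 1.00, Ddit4, an inhibitor of the growth kinase mTORC1, by 0.83, and Pdk1, which holds pyruvate back from the mitochondrion, by 0.71. P4ha1, the catalytic subunit of collagen prolyl hydroxylase (chr10:59323296-59373304, plus strand), fell to 47.1, 54.0 and 50.2 CPM in live draining nodes, against 88.4, 70.0 and 82.2 CPM in live non-draining nodes (log2 difference -0.70, SE 0.11, adjusted p = 7.45e-06). It was at 55.8 to 78.1 CPM in naive nodes. Ndrg1, Bnip3l and Egln1 were not called.

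Slc16a3, the carrier that exports lactate from strongly glycolytic cells (chr11:120948480-120960868, plus strand), was named after its values were seen because its counts were so unequal. It had 111 UMIs in the 3 live draining libraries and 2 UMIs in the 3 live non-draining libraries, a ratio of rates of 18.5 (95% interval 5.0 to 155.0, exact, counting error only; adjusted p = 1.47e-05 by edgeR). The size of this ratio rests on the 2 UMIs of the reference. The Slc16a3 draining effect was not called different between live and fixed cells in any of the 3 types tested, fLEC-like cells among them. Slc16a1, the other lactate and pyruvate carrier measured, had 158, 163 and 152 CPM in live draining nodes, against 144, 175 and 145 CPM in live non-draining nodes, and was not called.

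Other measures moved with these genes in fLEC-like cells. The share of dividing cells (at least 2 UMIs of a list of division genes) was 26.47% to 34.04% in live draining nodes and 5.71% to 9.13% in live non-draining nodes. Without the dividing cells, 18 members were called, with log2 differences of 1.24 for Slc2a1, 1.15 for Gapdh, 1.10 for Ldha and 1.02 for Pkm. Immediate early genes, which respond to tissue handling, summed to 2830 to 3310 CPM in live draining nodes and 6860 to 7630 CPM in live non-draining nodes. Markers of other lineages (80 genes) summed to 2080 to 2220 CPM in live draining nodes and 1010 to 1220 CPM in live non-draining nodes, of which pericyte markers made up 844 to 850 CPM in live draining nodes and 227 to 407 CPM in live non-draining nodes. Mitochondrially encoded genes, a measure of cell quality, were at 24400 to 30900 CPM in live draining nodes and 16700 to 21000 CPM in live non-draining nodes, without overlap. Epithelial genes (a list of 9, MC38 being a carcinoma line) were at 2.39 to 4.24 CPM in live draining nodes and 0 to 1.83 CPM in live non-draining nodes. The part of the immediate early genes, the mitochondrially encoded genes and the other lineages' markers in the result was not tested.

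In cLEC-like cells, 9 of 27 members rose and 1 fell, 37.0% against 20.7% of all genes tested. Ldha had 268, 293 and 301 CPM in live draining nodes, against 162, 174 and 124 CPM in live non-draining nodes (log2 difference 0.90, SE 0.09, adjusted p = 6.55e-09). Gapdh rose by 0.86, with 627, 643 and 685 CPM in live draining nodes, against 414, 328 and 317 CPM in live non-draining nodes. Adm had 88.6, 107 and 116 CPM in live draining nodes, against 63.5, 59.1 and 44.4 CPM in live non-draining nodes (0.86, SE 0.14, adjusted p = 2.24e-05), and Hif1a rose by 0.74 (SE 0.09, adjusted p = 4.09e-07). Each of these 4 genes had groups that did not overlap. Pkm, with 164, 193 and 195 CPM in live draining nodes, against 165, 165 and 141 CPM in live non-draining nodes, was not called.

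P4ha1 fell in cLEC-like cells as well, to 38.5, 46.9 and 53.2 CPM in live draining nodes, against 86.9, 92.6 and 71.6 CPM in live non-draining nodes (log2 difference -0.87, SE 0.12, adjusted p = 4.21e-06). It was at 40.5, 44.7 and 49.5 CPM in fixed draining nodes, 34.0, 35.9 and 39.3 CPM in fixed non-draining nodes, and 80.7 to 92.9 CPM in naive nodes. The fixed libraries of both sides were thus near the live draining level and below the naive range. Fixed non-draining nodes were not tested against naive nodes. Without dividing cells, 22.1% to 24.01% of cLEC-like cells in live draining nodes and 6.8% to 10.53% in live non-draining nodes, 6 members were called. Immediate early genes summed to 6910 to 7910 CPM in live draining nodes and 16300 to 19000 CPM in live non-draining nodes. Markers of other lineages summed to 1960 to 2000 CPM in live draining nodes and 1660 to 1690 CPM in live non-draining nodes, of which fibroblastic markers made up 568 to 664 CPM in live draining nodes and 258 to 307 CPM in live non-draining nodes. The part of these lists in the result was not tested.

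In MedLEC-like cells, 8 of 23 members rose and none fell in edgeR, against 8.77% of all genes called, and DESeq2 called 6. Hif1a had 591, 557 and 481 CPM in live draining nodes, against 219, 247 and 200 CPM in live non-draining nodes (log2 difference 1.30, SE 0.15, adjusted p = 1.78e-07). Slc2a1 had 53.5, 53.3 and 60.7 CPM in live draining nodes, against 23.9, 8.81 and 19.6 CPM in live non-draining nodes (1.49, SE 0.35, adjusted p = 0.00425). Pfkp rose by 1.25 (SE 0.31, adjusted p = 0.00686) and Ddit4 by 2.14 (SE 0.57, adjusted p = 0.0127), and Ddit4 was at 0 CPM in live non-draining library B. Leaving out live non-draining library B or C left 5 members called. Dividing cells made up 11.86% to 20.78% of MedLEC-like cells in live draining nodes and 0% to 3.33% in live non-draining nodes. Without them the count of called members stayed within 1.5 times, and Hif1a, Slc2a1, Pfkp and Ddit4 did not lose their calls. Immediate early genes were at 2400 to 3290 CPM in live draining nodes and 5430 to 8460 CPM in live non-draining nodes. The part of the immediate early genes in the result was not tested.

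In MRC-like cells, the fibroblastic cells under the subcapsular sinus, enzymes from glucose phosphate isomerase (Gpi1) to lactate dehydrogenase (Ldha) rose, while the glucose carrier Slc2a1 did not pass the test. Of 31 members, 11 rose and 1 fell, 38.7% against 16.3% of all genes tested, and the median member was higher by 0.35 on the log2 scale (all genes -0.01). Ldha had 474, 542 and 492 CPM in live draining nodes, against 242, 210 and 220 CPM in live non-draining nodes (1.15, SE 0.12, adjusted p = 4.59e-08). Pkm had 250, 299 and 275 CPM in live draining nodes, against 155, 152 and 125 CPM in live non-draining nodes (0.91, SE 0.11, adjusted p = 9.36e-07). The live draining libraries of both genes lay above all other libraries. For Ldha these were at 208 to 234 CPM (fixed draining), 153 to 284 CPM (fixed non-draining) and 159 to 196 CPM (naive), and for Pkm at 158 to 166 CPM (fixed draining), 163 to 212 CPM (fixed non-draining) and 148 to 173 CPM (naive).

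Pfkfb3 had 51.9, 43.1 and 42.6 CPM in live draining nodes, against 27.4, 20.0 and 27.5 CPM in live non-draining nodes (log2 difference 0.87, SE 0.24, adjusted p = 0.01). Pfkl had 57.8, 77.8 and 67.5 CPM in live draining nodes, against 39.1, 38.1 and 39.98 CPM in live non-draining nodes (0.79, SE 0.20, adjusted p = 0.00688). Eno1, Gapdh, Aldoa, Pgam1, Tpi1, P4ha2 (a prolyl hydroxylase subunit) and Gpi1 (glucose phosphate isomerase) were also called, with log2 differences of 0.73, 0.66, 0.64, 0.58, 0.57, 0.57 and 0.35 in that order. Slc2a1 (log2 difference -0.30, adjusted p = 0.409) and Hif1a, with 202, 209 and 222 CPM in live draining nodes, against 236, 206 and 242 CPM in live non-draining nodes, were not called. Pdk4, a kinase that blocks pyruvate dehydrogenase during fasting, was called lower on few counts, 27 UMIs in live draining and 18 UMIs in live non-draining nodes, whose MRC-like cells held fewer UMIs in all (ratio of rates 0.208, 95% interval 0.11 to 0.401, exact, counting error only; named after its values were seen).

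Dividing cells made up 31.46% to 33.54% of MRC-like cells in live draining nodes and 7.89% to 16.22% in live non-draining nodes. Without them 10 members were called, Ldha at a log2 difference of 1.07 and Pkm at 0.80, while Pfkfb3 was no longer called in MRC-like cells. Immediate early genes were at 3400 to 4160 CPM in live draining nodes and 4820 to 8200 CPM in live non-draining nodes, and the markers of other lineages at 3210 to 3330 CPM in live draining nodes and 3560 to 4070 CPM in live non-draining nodes. Their part in the result was not tested.

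In MedRC-like cells, 5 of 31 members rose and 5 fell, 32.3% against 14.0% of all genes tested. Ldha had 212, 218 and 238 CPM in live draining nodes, against 120, 118 and 87.3 CPM in live non-draining nodes (log2 difference 1.03, SE 0.12, adjusted p = 3.4e-07). Slc16a1 rose by 0.73, Hif1a by 0.55 and Pgam1 by 0.47. Adm (chr7:110627661-110629820, plus strand) fell to 27.1, 20.2 and 28.4 CPM in live draining nodes, against 74.3, 68.3 and 52.9 CPM in live non-draining nodes (-1.39, SE 0.23, adjusted p = 9.63e-05). It was at 48.1 to 111 CPM in fixed draining nodes, 36.8 to 81.1 CPM in fixed non-draining nodes and 40.5 to 49.3 CPM in naive nodes, all above the live draining libraries. Bnip3, a mitophagy receptor, fell to 23.3, 15.7 and 15.98 CPM in live draining nodes, against 29.7, 35.4 and 31.6 CPM in live non-draining nodes (-0.77).

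Slc2a1 and Tpi1 were called lower in MedRC-like cells with overlapping groups, and neither call was made by DESeq2. Without dividing cells (17.24% to 21.07% in live draining nodes and 3.05% to 8.79% in live non-draining nodes) 6 members were called in MedRC-like cells. Without live draining library A it was 6 members and without live draining library B 5. Immediate early genes were at 3590 to 4970 CPM in live draining and 7690 to 11500 CPM in live non-draining MedRC-like cells, and mitochondrially encoded genes at 33400 to 37000 CPM in live draining and 46700 to 51800 CPM in live non-draining nodes. Their part in the result was not tested.

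In TRC-like cells, 3 of 33 members rose and 2 fell, 15.2% against 7.59% of all genes tested. Adm rose here, with 40.3, 39.5 and 54.1 CPM in live draining nodes, against 28.5, 27.8 and 19.5 CPM in live non-draining nodes (log2 difference 0.77, SE 0.17, adjusted p = 0.00311). Ldha rose by 0.58 (adjusted p = 8.96e-06), with 174, 196 and 180 CPM in live draining nodes, against 124, 137 and 107 CPM in live non-draining nodes, and Ldhb, the subunit that favors pyruvate formation, by 0.41. Slc2a1 fell to 106, 106 and 114 CPM in live draining nodes, against 128, 144 and 162 CPM in live non-draining nodes (-0.40, SE 0.09, adjusted p = 0.0022). Pdk4 fell to 18.2, 13.8 and 16.8 CPM in live draining nodes, against 32.3, 27.0 and 24.5 CPM in live non-draining nodes (-0.81). Without dividing cells (23.18% to 24.53% in live draining and 17.76% to 20.97% in live non-draining nodes) 2 members were called in TRC-like cells, and Slc2a1, Ldhb and Pdk4 no longer were. Immediate early genes were at 1140 to 1320 CPM in live draining and 2690 to 3970 CPM in live non-draining TRC-like cells, and markers of other lineages at 4550 to 4750 CPM in live draining and 3920 to 4420 CPM in live non-draining nodes. Their part in the result was not tested.

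Among immune cells, Gapdh rose in monocyte and macrophage-like, dendritic cell-like and T cell-like cells, beside falls of Pfkfb4 or Pfkfb3, which set phosphofructokinase activity. In monocyte and macrophage-like cells, 8 of 25 members rose and 2 fell, while 5.65% of all genes tested were called. Gapdh had 875, 716 and 816 CPM in live draining nodes, against 406, 465 and 308 CPM in live non-draining nodes (log2 difference 1.03, adjusted p = 0.000941). Ldha had 259, 242 and 255 CPM in live draining nodes, against 155, 134 and 124 CPM in live non-draining nodes (0.85, adjusted p = 0.000155), and Pgam1 rose by 0.81. Pfkfb4, a bifunctional regulator related to Pfkfb3, fell to 51.7, 63.4 and 52.9 CPM in live draining nodes, against 65.5, 99.9 and 111 CPM in live non-draining nodes (-0.66). The Pfkfb4 call was lost without dividing cells, without live draining library A or C, and without live non-draining library B or C. Dividing cells made up 8.58% to 13.22% of monocyte and macrophage-like cells in live draining nodes and 2.4% to 4.62% in live non-draining nodes. Pfkl (0.97) and Hk2 (-0.54) were called in edgeR and not in DESeq2. The count in monocyte and macrophage-like cells fell to 4 without live draining library A or live non-draining library C and to 5 without live draining library C or live non-draining library A or B, and no member was called with a stricter gate. Immediate early genes were at 3070 to 3350 CPM in live draining and 5160 to 7640 CPM in live non-draining nodes in these cells, and their part in the result was not tested.

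In dendritic cell-like cells, 7 of 29 members rose and 3 fell, 34.5% against 9.19% of all genes tested. Gapdh had 861, 878 and 925 CPM in live draining nodes, against 599, 561 and 446 CPM in live non-draining nodes (log2 difference 0.73, adjusted p = 3.65e-05). Ldha had 209, 214 and 265 CPM in live draining nodes, against 153, 147 and 136 CPM in live non-draining nodes (0.65), and Tpi1 rose by 0.55. Slc2a3, the neuronal glucose carrier that leukocytes also use, fell to 8.87, 14.6 and 17.0 CPM in live draining nodes, against 32.7, 24.2 and 24.2 CPM in live non-draining nodes (-1.08, adjusted p = 0.0127).

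Eno2, the neuronal enolase, fell in dendritic cell-like cells to 48.8, 45.6 and 32.1 CPM in live draining nodes, against 71.8, 76.2 and 96.8 CPM in live non-draining nodes (-0.92, adjusted p = 0.000226). Pfkfb3 fell to 356, 265 and 220 CPM in live draining nodes, against 397, 412 and 499 CPM in live non-draining nodes (-0.63, adjusted p = 0.00249). With fixed cells Pfkfb3 went the other way, with 379, 417 and 382 CPM in fixed draining nodes, against 292, 233 and 226 CPM in fixed non-draining nodes. Naive nodes had a mean of 385 CPM without TMM scaling, near the fixed draining level and above the fixed non-draining libraries. The call of Pfkl (0.68) was lost in DESeq2 and without a filter on low counts, and with a stricter gate 3 members were called. Markers of other lineages were at 1000 to 1270 CPM in live draining and 795 to 936 CPM in live non-draining dendritic cell-like cells, and mitochondrially encoded genes at 39900 to 51600 CPM in live draining and 51700 to 60600 CPM in live non-draining nodes. Their part in the result was not tested.

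In T cell-like cells, 6 of 24 members rose and 1 fell, 29.2% against 5.65% of all genes tested. Tpi1 had 135, 256 and 305 CPM in live draining nodes, against 61.8, 67.9 and 75.0 CPM in live non-draining nodes (log2 difference 1.76, adjusted p = 0.000372). Gapdh had 1135, 1696 and 1568 CPM in live draining nodes, against 806, 971 and 735 CPM in live non-draining nodes (0.81), and Pfkfb3 fell to 40.4, 38.8 and 27.3 CPM in live draining nodes, against 99.7, 70.9 and 65.0 CPM in live non-draining nodes (-1.17, adjusted p = 0.0217). The T cell-like count was 3 without live draining library B or C, 2 without live non-draining library A, and 4 without dividing cells (8.51% to 19.3% in live draining and 6.1% to 9.93% in live non-draining nodes). Markers of other lineages were at 1710 to 2090 CPM in live draining and 1240 to 1330 CPM in live non-draining T cell-like cells, and mitochondrially encoded genes at 44700 to 49900 CPM in live draining and 51800 to 61900 CPM in live non-draining nodes. Their part in the result was not tested.

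**Figure D3:**
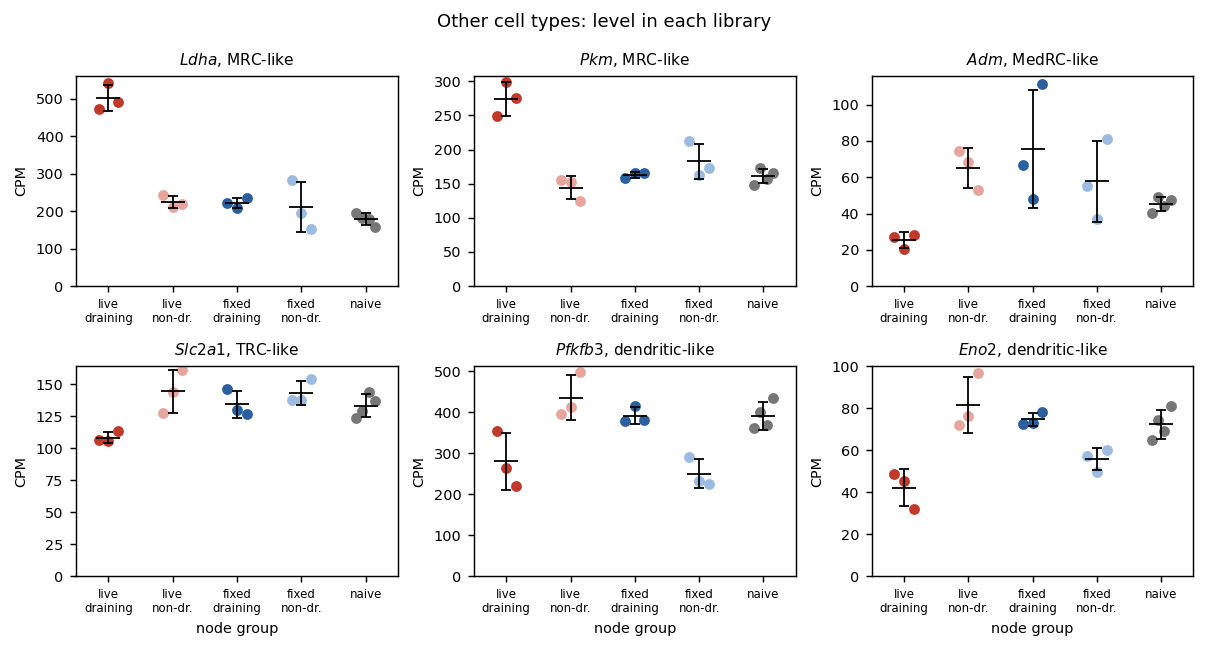
CPM per library for Ldha and Pkm in MRC-like cells, Adm in MedRC-like cells, Slc2a1 in TRC-like cells, and Pfkfb3 and Eno2 in dendritic cell-like cells, 1 point per library in 5 groups, with the mean and SD. Ldha sits at 474 to 542 CPM in the live draining libraries of MRC-like cells, and Adm at 20.2 to 28.4 CPM in those of MedRC-like cells, below every other library.

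Over the other 9 types together, 8 of 148 member tests were called, 5 higher and 3 lower, against 2.11% of all tests, and 40 had an unadjusted p under 0.05. Pkm (0.86), Ldha (0.81) and Gapdh (0.77) rose in pericyte-like cells, Ldha (0.94) rose and Slc16a1 (-1.15) and Hif1a (-0.73) fell in cells of the FDC gate, Adm fell in PRC-like cells (-1.84), and Gapdh rose in CorLEC-like cells (0.95). The Adm call rests on 2 live non-draining libraries, since library B had 6 PRC-like cells and was left out of the fit, and it was lost without live draining library B or C or live non-draining library A. With the replicate letter as a block, all 3 pericyte-like calls and the CorLEC-like call were lost, 4 of the 7 calls in the 7 types where that fit was possible. In BEC (blood endothelial), B cell, plasma cell, NK cell and mast cell-like cells no member was called by edgeR, with 7, 4, 4, 2 and 0 members at an unadjusted p under 0.05 in that order, and DESeq2 called 8 members over the 9 types. Of the 8 edgeR calls, DESeq2 made 5, and it did not call Ldha or Pkm in pericyte-like cells. Without live draining library B or C or live non-draining library C 1 member was called over these 9 types, with 3 without live non-draining library B and 5 without live draining library A.

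With fixed MC38 cells few members were called. Fixed non-draining nodes held fewer cells than live non-draining nodes in some types, 85 against 150 MRC-like and 431 against 928 dendritic cell-like cells. In fLEC-like cells the numbers were close, 402 against 423. The part of cell numbers in the count of calls was not tested. Over 16 types, 5 of 372 member tests were called in draining against non-draining nodes, and 37 had an unadjusted p under 0.05. In dendritic cell-like cells, where 4.72% of all genes were called, Ndrg1 (a stress-induced gene, 0.77, adjusted p = 0.00288) and Pfkfb3 (0.63, adjusted p = 0.00577) rose and Hk2 (-0.56, adjusted p = 0.0298) fell. Hk2 also fell in monocyte and macrophage-like cells (-0.70, adjusted p = 0.0387, 2.85% of all genes called). P4ha1 rose in fLEC-like cells, with 41.9, 44.7 and 43.1 CPM in fixed draining nodes, against 22.9, 25.6 and 31.5 CPM in fixed non-draining nodes (0.75, SE 0.16, adjusted p = 0.0271), where 0.169% of all genes were called. The fixed libraries of both sides lay below the naive libraries for P4ha1. In the other 13 types none of 289 member tests was called by edgeR, with 19 at an unadjusted p under 0.05, beside 0.0963% of all gene tests, and DESeq2 called 6 members over the 16 types. Without fixed draining library B or C the 5 calls became 2, and without fixed non-draining library A 3.

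The draining effect itself was compared between live and fixed cells, as the difference of the log2 differences. In fLEC-like cells 12 of 29 members differed, 41.4% against 14.6% of all genes tested, 11 with a higher effect in live-cell mice. The differences were 1.48 for Slc2a1 (SE 0.17, adjusted p = 6.06e-08), 1.23 for Gapdh (SE 0.12, adjusted p = 2.45e-09), 1.23 for Ldha (SE 0.13, adjusted p = 1.66e-08), 1.22 for Tpi1 and 1.13 for Pkm (adjusted p = 9.4e-09). P4ha1 had a difference of -1.44 (SE 0.19, adjusted p = 9.42e-07). It fell with live and rose with fixed cells, each against its own non-draining nodes. For both inocula its draining libraries lay below the naive range, and its fixed non-draining libraries lay lower still. The difference thus also holds the gap between the non-draining groups, whose source was not tested.

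In MRC-like cells 5 of 31 members differed in their draining effect, 16.1% against 3.17% of all genes tested. They were Ldha (1.12, SE 0.20, adjusted p = 0.00107), Pkm (1.08, SE 0.18, adjusted p = 0.000771), Aldoa (0.78), Gapdh (0.64) and Pdk4 (-3.17, adjusted p = 0.0463, on few counts). This MRC-like count was 3 without live draining library B or C, and 2 without live non-draining library B or C, fixed draining library A or C, fixed non-draining library A or C, or the dividing cells.

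**Figure D4:**
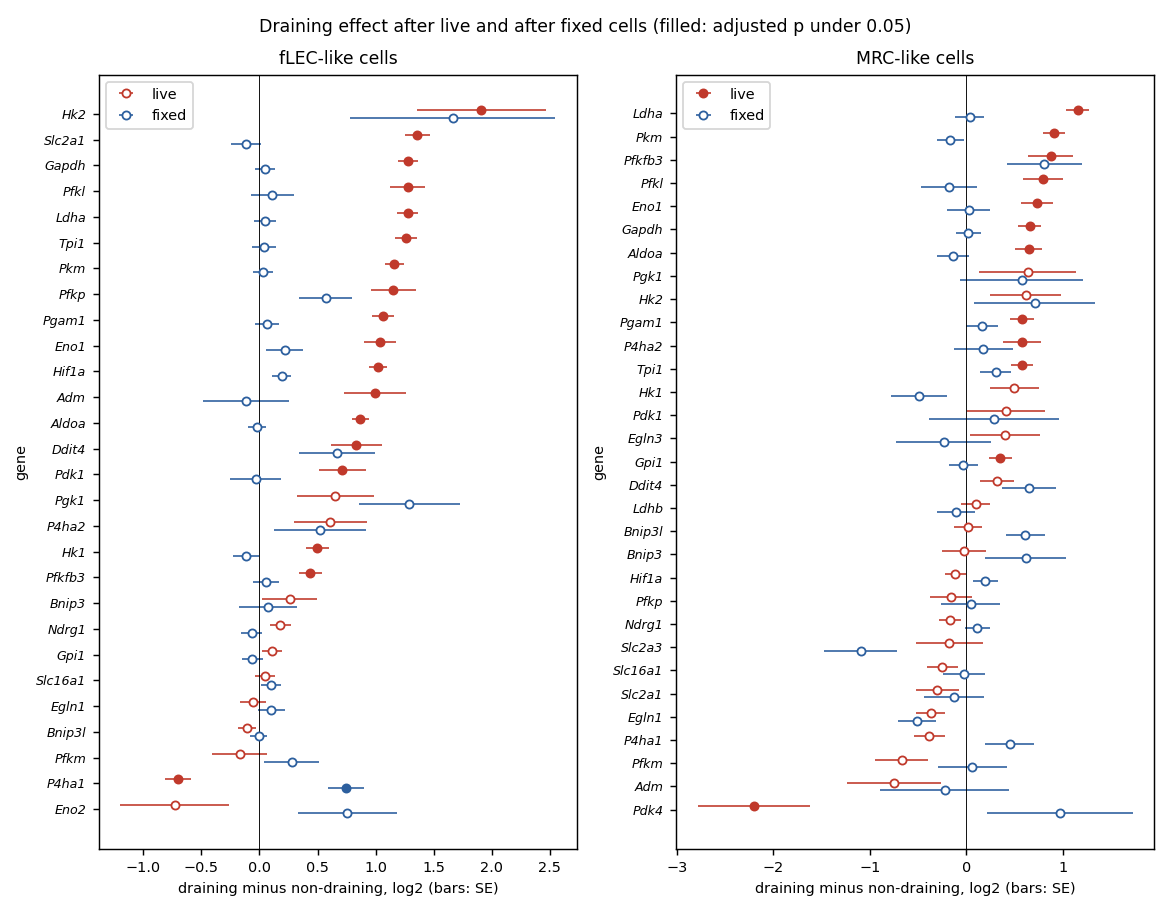
Log2 difference, draining minus non-draining, with SE, for each tested member in fLEC-like and MRC-like cells, in mice given live cells and in mice given fixed cells. Filled points have an adjusted p under 0.05. Slc16a3, although called in fLEC-like cells, is left out because it had only 2 UMIs in the live non-draining nodes of these cells. In fLEC-like cells Slc2a1 is at 1.36 in live-cell mice, and P4ha1 is at -0.70 in live-cell and 0.75 in fixed-cell mice.

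In cLEC-like cells 8 of 27 members differed in this way (13.6% of all genes), among them Gapdh (1.03), Ldha (0.96), Adm (0.92), Tpi1 (0.58) and P4ha1 (-1.18). In MedLEC-like cells Slc2a1 (2.23, adjusted p = 0.0144) and Hif1a (1.27, adjusted p = 0.00048) differed, 2 of 23 members (2.9% of all genes), with 4 members without live non-draining library A. In MedRC-like cells Ldha (1.45) and Adm (-1.78) differed, 2 of 31 members (5.07% of all genes). In TRC-like cells none of 33 members was called by edgeR or DESeq2 (2.08% of all genes), 6 had an unadjusted p under 0.05, and leaving out live non-draining library A gave 1 call.

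Among immune cells, 5 of 25 members differed in monocyte and macrophage-like cells (3.6% of all genes): Gapdh (1.19), Pkm (0.96), Eno1 (0.82), Aldoa (0.79) and Ldha (0.68). The count was 1 to 3 without any 1 of live draining library A (1), B (3) or C (3), live non-draining library B (3) or C (2), fixed draining library A (3) or B (2), or fixed non-draining library C (1). In dendritic cell-like cells 4 of 29 differed (7.37% of all genes), Ldha by 1.00, Pfkp by 0.68, Eno2 by -1.33 and Pfkfb3 by -1.26. In T cell-like cells 3 of 24 differed (1.89% of all genes), Tpi1 by 2.06, Gapdh by 0.94 and Pfkfb3 by -2.04. The T cell-like count was 6 without live draining library A, 0 without live non-draining library A, and 1 without live draining library B or C, fixed draining library A or B, or fixed non-draining library A.

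Naive nodes gave another baseline, which shares the live draining libraries with the comparison above and is given beside it. In fLEC-like cells 20 of 29 members were higher and 2 lower in live draining than in naive nodes (35.1% of all genes called), with log2 differences of 1.67 for Slc2a1, 1.49 for Pfkl, 1.33 for Gapdh, 1.19 for Ldha, 1.15 for Pkm and -0.43 for P4ha1. In MRC-like cells 14 of 31 were higher and 2 lower (25.8% of all genes called), with 1.49 for Ldha, 0.96 for Pfkl, 0.77 for Gapdh and 0.77 for Pkm. Live non-draining nodes had no called member against naive nodes in fLEC-like cells (3 at an unadjusted p under 0.05, 0.397% of all genes called) or MRC-like cells (8 at an unadjusted p under 0.05, 0.296% of all genes called), in edgeR as in DESeq2.

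Fixed draining nodes had 1 called member against naive nodes in each type. P4ha1 was lower in fLEC-like cells (-0.66, adjusted p = 2.44e-04, 1.03% of all genes called), and Hk2 was higher in MRC-like cells (1.91, 0.783% of all genes called). The Hk2 call was not made by DESeq2, and no member was called in MRC-like cells without naive library A or D, live draining library C, or fixed draining library A or B, whereas 2 were without live draining library A or live non-draining library A or C.

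Other genes of the same metabolism, in lists that hold no member, changed in both directions in fLEC-like cells of live draining nodes. Of 12 further glycolysis genes 2 rose and 2 fell. Tigar, which lowers fructose 2,6-bisphosphate, rose by 2.80 (adjusted p = 3.23e-14), Pgm1, the phosphoglucomutase, by 0.67, and Slc16a7, a pyruvate carrier, was lower (-1.27). Of 25 further hypoxia genes 5 rose and 3 fell, with Higd1a at 0.65, Ak4 at 2.84 and Vldlr at 0.46. Of 9 pentose phosphate genes 2 rose and 1 fell (Pgd 0.83, Pgls 0.36, H6pd -0.57), and of 23 genes of pyruvate entry and the citric acid cycle 6 rose and none fell (Got1 1.05, Mdh2 0.32, Mpc1 0.31). Of 15 upstream regulators 1 rose and 6 fell: Txnip, which restrains glucose uptake, was lower (-1.39, adjusted p = 7.77e-15), as were Sesn1 (-0.95) and Myc (-0.54). Ak4, Slc16a7 and Got1 had few counts, with means over all libraries of 3.78, 5.7 and 7.9 CPM in that order. The shares called in the lists were 33.3%, 32.0%, 33.3%, 26.1% and 46.7% in the order of the lists above, against 29.7% of all genes, so that the first 4 lists were near the background.

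In MRC-like cells Txnip was also lower (-1.36, adjusted p = 6.05e-08), 1 of 2 upstream regulators that fell among 14. None of 12 further glycolysis genes was called there by edgeR (3 at an unadjusted p under 0.05), 1 of 25 hypoxia genes rose (Higd1a 0.69) and 4 fell (Epas1, the other hypoxia-inducible subunit, -0.52; Zfp395 -0.69), 2 of 9 pentose phosphate genes rose (Pgls 0.55, Tkt 0.59), and of 23 genes of pyruvate entry and the citric acid cycle 3 rose and 1 fell (Fh1 1.22, Mdh2 0.59, Pdp1 -1.21). The shares called in MRC-like cells were 14.3%, 0%, 20%, 22.2% and 17.4% in that order, against 16.3% of all genes, so that all lists but the glycolysis list, which was below it, were near the background.

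In cLEC-like cells, against 20.7% of all genes, 2 of 9 further glycolysis genes (22.2%), 9 of 27 hypoxia genes (33.3%), 4 of 9 pentose phosphate genes (44.4%), 5 of 23 genes of pyruvate entry and the citric acid cycle (21.7%) and 4 of 15 upstream regulators (26.7%) were called. The glycolysis, pentose phosphate and citric acid cycle genes called all rose, among them Tigar (0.98), Pgls (0.52), Tkt (0.54), H6pd (0.59) and Mpc1 (0.79). Of the hypoxia genes 5 rose and 4 fell, with Angptl4, a lipase inhibitor, at 0.84 and Lox, a collagen crosslinking enzyme, at -0.94, and of the regulators 1 rose and 3 fell, with Txnip at -0.64 (adjusted p = 3.66e-08).

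In naive nodes the members differed between lineages about as often as other genes did. In the 4 naive libraries, 24 of 33 members differed between LEC-like and fibroblastic cell-like cells, 72.7% against 71.9% of all genes tested, 8 higher and 16 lower in LECs. Pfkfb3 had 90.9, 99.6, 100 and 89.2 CPM in LECs, against 26.4, 23.7, 25.6 and 25.1 CPM in fibroblastic cells (log2 difference 1.91, adjusted p = 7.48e-15). Slc16a1 (0.92), Gpi1 (0.61) and Bnip3l (0.57) were also higher in LECs. Ldhb had 2.49, 1.59, 4.70 and 4.14 CPM in LECs, against 62.6, 57.5, 60.6 and 59.9 CPM in fibroblastic cells (-4.25, adjusted p = 7.92e-15), and Hk2 (-2.38), Slc2a3 (-2.31), Pdk4 (-2.13) and Slc2a1 (-1.36) were lower in LECs. Ldha was not called (0.02, adjusted p = 0.666), with means of 139.2 CPM in LECs and 136.9 CPM in fibroblastic cells.

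**Figure D5:**
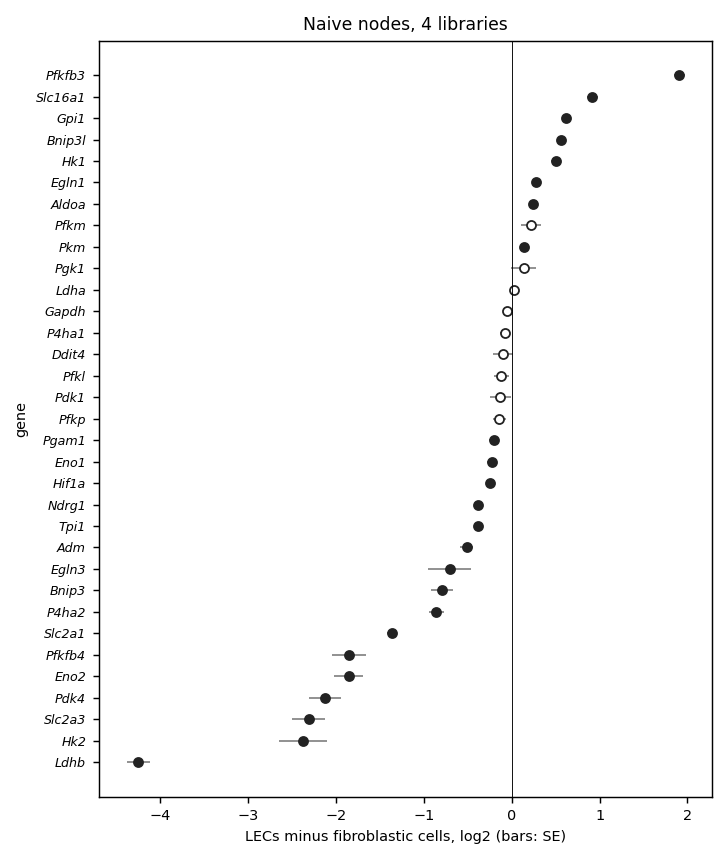
Log2 difference, LEC-like minus fibroblastic cell-like cells in the 4 naive libraries, with SE, for each of the 33 tested members, ordered by value. Filled points have an adjusted p under 0.05. Pfkfb3 is at 1.91 at one end and Ldhb at -4.25 at the other, with Ldha at 0.02.

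Several members were concentrated in 1 or 2 types of naive nodes, given here as CPM without TMM scaling, mean ± SD over 4 libraries. Slc16a1 was highest in fLEC-like cells (168 ± 12) and MedLEC-like cells (146 ± 17), whose libraries overlapped, with 73.9 in MRC-like and 1.41 in cLEC-like cells. Ldhb was at 68.3 ± 3.7 in MRC-like and 65.1 ± 4.2 in TRC-like cells, which overlapped, and at 1.68 in fLEC-like cells. Adm was highest in PRC-like cells (218 ± 95), at 55.2 in cLEC-like cells and 45.4 in MedRC-like cells.

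Pfkfb3 was at 385 ± 39 in dendritic cell-like cells and 142 ± 5 in fLEC-like cells. Hk2 was at 75.7 ± 13 in monocyte and macrophage-like cells, 41.5 in dendritic cell-like cells and 36.8 in T cell-like cells. Pfkfb4 was at 56 ± 3.3 in monocyte and macrophage-like cells and 25.4 in B cell-like cells. Egln3, an oxygen-sensing prolyl hydroxylase, was at 16.7 ± 8.6 in cells of the FDC gate, overlapping T cell-like cells at 8.22, and Pdk4 at 17.8 ± 4.8 in TRC-like cells, overlapping BEC-like cells at 12.3. These genes were chosen for this spread, so no test is given.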

How the data were processed

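PDPN-enriched cells of 16 lymph node libraries were profiled by droplet sequencing (10x 3' v3). The authors aligned reads to mm10 and counted UMIs with Cell Ranger 3.0.1, per the labels, and deposited 1 matrix of raw UMI counts per library. These counts were analysed as deposited. Cells with 200 to 6000 genes and at most 30% mitochondrial UMIs were kept.

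Each cell was placed by a negative binomial likelihood over marker genes and kept in its type where the best type was over 100 times more likely than the next. Markers were fixed in a written list, but the rule that scores them was settled after cells had been looked at. No doublet caller was run. At the level of lineages 2091 cells under this ratio were left out, while 3111 cells with a ratio of up to 10000 were kept, so that cells with markers of more than one lineage were only partly removed. UMIs of types with at least 10 cells in a library were summed, since cells are not replicates, and tested over all libraries and all genes with edgeR 4.0.16 (R 4.3.3; TMM, filterByExpr, glmQLFit, glmQLFTest, Benjamini-Hochberg). LECs and fibroblastic cells of naive nodes were compared with the library as a block. The study's methods give 3 mice per inoculum, which each gave a draining and a non-draining node, but the labels do not say which libraries share a mouse, and the number of naive mice is not given in the sources used here. The p-values measure the spread between libraries. Neutrophil-like cells were too few for a test, and PRC-like and NK cell-like cells had no fixed non-draining group.

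Genes given in full are Ldha and Pkm in MRC-like and fLEC-like cells and, per type, up to 4 called members of at least 10 CPM with the largest rise and up to 4 with the largest fall, up to 4 in each direction for the other comparisons, up to 3 per further gene list by p, and up to 8 members for levels across types. The 35 members and the lists were chosen with earlier results of these data known. Alternatives were DESeq2 1.42.0, no filter on low counts, a replicate block, the 12 libraries of inoculated mice alone, each library left out, 3 libraries left out, at most 10% mitochondrial UMIs, a stricter gate, no dividing cells, at most 50 cells per library and type, other scaling factors and, added after seeing the data, no cells among the 10% with most UMIs. Reads of near-identical copies were at most 1.01% of any member with its copies (Pgk1). Intervals of count ratios cover counting error only. Promoters and positions are from RefSeq tables and the annotation of GRCm38, the assembly of mm10. Tables were handled in Python 3.11.15 with numpy 2.4.6, pandas 2.3.3 and scipy 1.17.1. Only the edgeR fit was tried on simulated counts, in fLEC-like and MRC-like cells, for the live and the fixed draining comparison. Those counts were drawn with edgeR's own fitted dispersions, and the gate and the other comparisons were not tried in this way.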

Additional observations from a re-analysis of the deposited data

Results flagged for a closer look

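Listed here are the 29 gene and type combinations named for a draining effect that differed between live-cell and fixed-cell mice. They were picked because edgeR called the difference itself, with up to 4 genes per direction and type and at least 10 CPM. Their number follows from that rule and is not a result. In fLEC-like cells the differences (log2, live effect minus fixed effect) were 1.48 for Slc2a1, 1.23 for Gapdh, 1.23 for Ldha, 1.22 for Tpi1 and -1.44 for P4ha1. In cLEC-like cells they were 1.03 for Gapdh, 0.96 for Ldha, 0.92 for Adm, 0.58 for Tpi1 and -1.18 for P4ha1. In MedLEC-like cells they were 2.23 for Slc2a1 and 1.27 for Hif1a.

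In MRC-like cells the differences were 1.12 for Ldha, 1.08 for Pkm, 0.78 for Aldoa and 0.64 for Gapdh. In MedRC-like cells they were 1.45 for Ldha and -1.78 for Adm. In monocyte and macrophage-like cells they were 1.19 for Gapdh, 0.96 for Pkm, 0.82 for Eno1 and 0.79 for Aldoa. In dendritic cell-like cells they were 1.00 for Ldha, 0.68 for Pfkp, -1.33 for Eno2 and -1.26 for Pfkfb3. In T cell-like cells they were 2.06 for Tpi1, 0.94 for Gapdh and -2.04 for Pfkfb3.

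Among 50 groups of 4 naive libraries examined, 3 held a library far from the other libraries of its group by Dixon's criterion, which chance meets in about 1 of 20 groups. They were Gapdh in T cell-like cells of naive library D (598 CPM), Pkm in T cell-like cells of naive library B (345 CPM), and Ldha in dendritic cell-like cells of naive library D (129 CPM).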

How the results depend on the processing

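For single genes, 92 results were recomputed in the other settings, which gave 2401 values, 1 per result and setting. The settings refit largely the same libraries, so these values are not independent. Of the 2401 values, 2050 kept their direction and their side of the threshold, 351 kept the direction but were no longer called, and none changed direction. Of the 92 results, 27 held in every setting in which the gene was tested. The count of called members in fLEC-like cells (19 in the live comparison) stayed within 1.5 times in every setting run. The counts that moved further are given here, and their cause was not tested except that settings with fewer cells or libraries hold fewer UMIs. For the counts in other settings, here and above, the share of all genes called in that setting is not given. A loss particular to the members and a loss over all genes can therefore not be told apart.

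With at most 50 cells per library and type, the live draining minus live non-draining counts were 4 (cLEC), 4 (MedLEC), 7 (MRC), 2 (MedRC), 0 (TRC), 1 (monocytes and macrophages), 0 (dendritic) and 1 (T cells). In that setting the live minus fixed effect counts were 2 (cLEC), 2 (MRC), 0 (monocytes and macrophages), 1 (dendritic) and 0 (T cells), live draining minus naive gave 14 (fLEC) and 8 (MRC), fixed draining minus naive gave 0 (fLEC) and 0 (MRC), the 16 types with fixed cells gave 1, and LECs minus fibroblastic cells gave 10. Without dividing cells the live counts were 6 (cLEC), 6 (MedRC), 2 (TRC), 6 (monocytes and macrophages) and 4 (T cells), the live minus fixed effect counts 3 (cLEC), 2 (MRC), 3 (monocytes and macrophages) and 1 (T cells), and fixed draining minus naive gave 0 (MRC).

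Without the 10% of cells with most UMIs, a setting chosen after seeing the data, the live counts were 2 (MedLEC), 3 (T cells) and 1 (the 9 remaining types), the live minus fixed effect counts 5 (cLEC), 1 (MedLEC), 2 (MRC), 1 (monocytes and macrophages) and 0 (T cells), and the fixed comparison gave 0. With the stricter gate monocytes and macrophages had 0 live and 0 live minus fixed calls, and dendritic cells 3 and 1. With at most 10% mitochondrial UMIs the counts were 2 (T cells, live), 4 (the 9 remaining types, live), 3 (MRC, live minus fixed) and 0 (T cells, live minus fixed). Without live draining library A, fixed non-draining library C and naive library A together, the counts were 6 (monocytes and macrophages, live), 2 (MRC), 0 (monocytes and macrophages) and 5 (T cells) for live minus fixed, and 0 (MRC, fixed draining minus naive). With no filter on low counts there were 1 (TRC, live minus fixed), 3 (MRC, fixed draining minus naive) and 13 (fixed, 16 types) calls. DESeq2 gave 0 for MRC, fixed draining minus naive, and the 12 libraries of inoculated mice alone gave 3 for MRC, live minus fixed.

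Leaving out 1 library at a time, the live counts ranged over 17 to 19 (fLEC), 8 to 13 (cLEC), 5 to 9 (MedLEC), 9 to 12 (MRC), 5 to 11 (MedRC), 4 to 5 (TRC), 4 to 10 (monocytes and macrophages), 8 to 10 (dendritic), 2 to 10 (T cells) and 1 to 9 (remaining types). The live minus fixed counts ranged over 12 to 15 (fLEC), 6 to 10 (cLEC), 2 to 4 (MedLEC), 2 to 5 (MRC), 2 to 3 (MedRC), 0 to 1 (TRC), 1 to 5 (monocytes and macrophages), 3 to 5 (dendritic) and 0 to 6 (T cells). Live draining minus naive ranged over 19 to 24 (fLEC) and 14 to 16 (MRC), live non-draining minus naive stayed at 0 in both, fixed draining minus naive at 1 (fLEC) and 0 to 2 (MRC), the fixed comparison over 2 to 7, and LECs minus fibroblastic cells over 23 to 25.

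Libraries share letters between nodes, and the replicate block on these letters moved the MRC-like live minus fixed count by over 1.5 times, to 2, and the live count over 7 of the remaining types to 3, against 7 without it, with Pkm, Ldha and Gapdh in pericyte-like cells and Gapdh in CorLEC-like cells lost. Of the single genes named it also ended the live calls of Pfkl (dendritic) and Slc2a1 (MedRC) and the live minus fixed calls of Aldoa and Gapdh (MRC). PRC-like and NK cell-like cells allowed no such fit. Deviations of same-lettered libraries correlated at -0.291 to 0.147, at most 2 of 6 pairs of a type exceeded 0.1, and at most 4 of 6 correlated best with their own letter, so the letters were not taken to pair the libraries. The stricter gate left too few cells for a value in the subsets, BECs, pericytes, plasma cells and NK cells.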
